A study of Homo sapiens with 6 samples.

Results

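SR proteins are a family of RNA-binding splicing factors named for a tail rich in arginine and serine, and the 10 genes examined here were SRSF1, SRSF2, SRSF3, SRSF4, SRSF5, SRSF6, SRSF7, SRSF10, SRSF11 and TRA2B. They were listed by name, with earlier results of these data known, and each matched 1 of the 60671 annotated genes of the matrix. Their RNA was measured by RNA-seq in 3 samples of the tumor core (TC) and 3 of the tumor margin (TM). Both groups came from xenografts of MDA-MB-231 cells of wild-type genotype (a line from a human breast tumor that lacks hormone receptors and HER2 amplification), grown after orthotopic injection into the mammary fat pads of female NSG mice (NOD/SCID/IL2Rγ-null, which lack mature lymphocytes but keep stromal cells, vessels and muscle) of 6 to 8 weeks. No drug treatment was labelled, and the labels named no difference between the groups other than the zone of the tumor. Each value is the RNA of a piece of tissue, so that fewer cells of a type and less RNA per cell cannot be told apart.

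SR proteins bind short exonic sequences through their RNA recognition motifs, help the spliceosome to find the neighboring splice sites, and can also act in RNA export and translation. Kinases of the SRPK and CLK families phosphorylate the arginine and serine tail and so set where the proteins reside in the cell. Many SR genes limit their own output by splicing in exons with premature stop codons, and such transcripts are degraded by nonsense-mediated decay (NMD). The gene values used here sum over all transcripts of a gene. GENCODE v29 lists 117 transcripts for the 10 genes, of which 42 are protein-coding, 22 are NMD targets (at least 1 in 10 of 10 genes) and 33 retain introns (in 8 of 10 genes), so a gene's value does not say how much of its RNA encodes protein.

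The values are TPM, which divide the reads of a gene by its transcript length and then by the total of the sample, so that levels of different genes can be compared. Sequencing depth cannot be recovered from TPM and was unknown, and the spread between samples was the only measure of precision. Values of a group are listed in the order of replicates 1, 2 and 3. Of 8 markers of the cell line, KRT18 was between 387 and 575 TPM and VIM between 3797 and 5283 TPM in all 6 samples. KRT8 was between 356 and 447 TPM and EPCAM between 3.66 and 6.02 TPM. ESR1, PGR and CDH1 stayed at or below 0.36 TPM. ERBB2, the gene of HER2, was at 22.3, 23.9 and 24.1 TPM in TC and at 40.7, 30.8 and 36.4 TPM in TM. The libraries also differed in other respects. The 10 skeletal muscle markers summed to 5.66, 7.51 and 3.55 TPM for TC and to 171.5, 452 and 1.78 TPM for TM, with 10 of 10 genes lower in mean in TC. The 10 fibroblast markers summed to 66.3, 124 and 226 TPM for TC and to 479, 1007 and 91.5 TPM for TM, with 8 of 10 lower in mean in TC. LUM and PDGFRA were the exceptions. Collagen genes made up most of this sum. In TM replicate 2, COL1A1 was at 698 TPM and COL1A2 at 218 TPM, whereas DCN and LUM were at 0. TM replicates 1 and 2 thus stood apart from the other 4 samples in both lists, and the SR genes and the other splicing lists are given with and without them.

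The genes were abundant in every sample, and each stood within the top 30.2% of the 13861 tested genes in all samples. By mean TPM over the 6 samples the order was SRSF3 (267), SRSF5 (220), SRSF2 (205), SRSF7 (122), SRSF1 (111), TRA2B (100.4), SRSF6 (89.5), SRSF4 (53.1), SRSF10 (53.0) and SRSF11 (36.9). Within samples, SRSF2 exceeded SRSF7 in 6 of 6 (mean difference 82.1 ± 41.5 TPM, SD, n = 6), SRSF6 exceeded SRSF4 in 6 of 6 (36.5 ± 19.5 TPM) and SRSF10 exceeded SRSF11 in 6 of 6 (16.1 ± 3.35 TPM). The other 6 pairs of neighbors in this order did not differ beyond their spread.

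To show the regions from which these genes are transcribed, promoter windows were taken from RefSeq (GRCh38.p14), which had entries for 9 of the 10 genes. SRSF2 had no entry. The 250 bases before the start site are printed for SRSF4, the gene with an entry whose difference between TC and TM had the smallest p-value, and for SRSF3 and TRA2B, whose proportion within the family was higher in TC. The SRSF4 window is chr1:29181901-29182150 on the minus strand, the SRSF3 window is chr6:36594112-36594361 on the plus strand and the TRA2B window is chr3:185938015-185938264 on the minus strand, each written 5′ to 3′. The GENCODE v29 gene begins inside each of these windows, so their last bases lie in a first exon of some transcripts. Capitals mark matches, on either strand, to any of 6 motifs: CCAAT itself, the GC box read as GGGCGG, the TATA box read as TATAAA, the cAMP response element read as TGACGTCA, the ETS core read as CCGGAAGT and the E box read as CACGTG. No match overlapped another in these windows.
SRSF4: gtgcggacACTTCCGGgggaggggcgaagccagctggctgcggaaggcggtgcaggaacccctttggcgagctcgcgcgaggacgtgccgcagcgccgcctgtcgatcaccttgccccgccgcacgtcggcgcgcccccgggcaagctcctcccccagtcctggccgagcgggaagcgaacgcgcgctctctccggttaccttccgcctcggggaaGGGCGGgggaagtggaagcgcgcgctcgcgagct
SRSF3: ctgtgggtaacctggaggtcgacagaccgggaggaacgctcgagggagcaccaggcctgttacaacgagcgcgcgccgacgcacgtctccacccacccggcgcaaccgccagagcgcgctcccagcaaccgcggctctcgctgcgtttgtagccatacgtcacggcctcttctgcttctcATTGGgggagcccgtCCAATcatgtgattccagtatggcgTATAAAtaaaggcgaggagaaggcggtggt
TRA2B: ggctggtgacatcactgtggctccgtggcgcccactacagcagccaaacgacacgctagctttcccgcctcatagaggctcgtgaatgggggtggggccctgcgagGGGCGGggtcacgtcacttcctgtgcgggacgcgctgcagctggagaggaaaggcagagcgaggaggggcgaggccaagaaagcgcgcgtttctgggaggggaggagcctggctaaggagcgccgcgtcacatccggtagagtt
No motif was common to the 3 windows: SRSF4 held a GC box and an ETS core, SRSF3 held a TATA box and CCAAT boxes, and TRA2B held a GC box. Of all 11 windows of the 9 genes, 5 held a GC box, 3 a TATA box, 2 an ETS core and 1 a CCAAT box, and 0 held a cAMP response element or an E box. Among 35116 windows of the same length the shares were 42.6% for the GC box, 10.7% for the TATA box, 3.42% for the ETS core, 32.0% for the CCAAT box, 1.65% for the cAMP response element and 6.34% for the E box. Their GC content was 73.6% in SRSF4, 62.4% in SRSF3 and 65.6% in TRA2B, against a median of 58.0% over all windows. SRSF7 and SRSF11 each had 2 windows, and those of SRSF7 share bases.

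The first question was whether any SR gene differed in level from core to margin, and it was addressed with limma on log2(TPM + 1) over all tested genes. The number of SR genes called at an adjusted p-value under 0.05 was 0 of 10 (smallest adjusted p = 0.124, limma), against 0.137% of all tested genes. All 10 log2 differences (TC minus TM) were below 0, as were 67.0% of all tested genes. Before adjustment, 3 of the 10 (SRSF2, SRSF4 and SRSF10) had p under 0.05 with lower values in TC, against 14.2% of all tested genes, and 0 of the 10 had p under 0.05 with higher values in TC, against 1.93%. The median log2 difference was -0.39 for the SR genes and -0.14 for all tested genes. Every TC sample was below every TM sample in 4 of the 10 genes (SRSF1, SRSF2, SRSF4 and SRSF7), against 18.9% of all tested genes, and every TC sample was above every TM sample in 0 of the 10, against 3.28%. Under other scalings the median over all genes moved to 0.014 (quantile normalization) or 0.049 (median-of-ratios scaling). That of the SR genes then moved to -0.26 and -0.18, with 9 and 8 of 10 genes below 0. The number with lower values in TC and p under 0.05 before adjustment became 2 (against 8.11% of all tested genes) and 0 (against 6.70%), and it was 6 when mitochondrially encoded genes were left out of the TPM (against 17.0%).

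**Figure D1:**
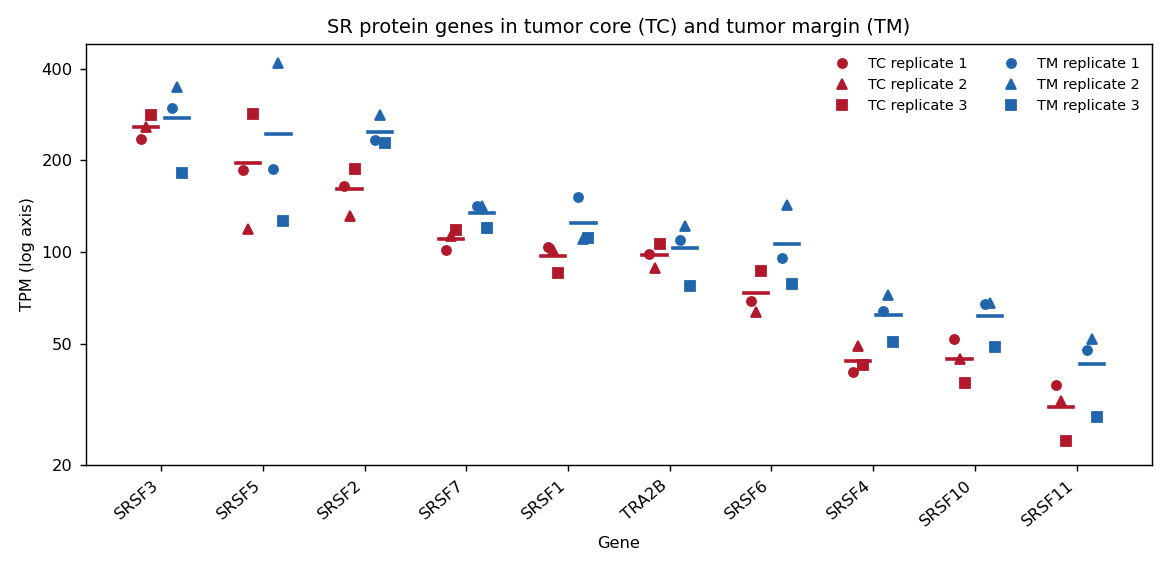
TPM (log axis) of the 10 SR genes in each sample, with TC in red, TM in blue, a symbol for each replicate number and bars at the group means. TM replicate 2 is the highest sample in 9 of 10 genes, and TM replicate 3 lies among or near the TC samples in most.

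SRSF2, which binds exonic enhancers and has also been tied to transcription elongation, had the largest difference. The gene (ENSG00000161547; chromosome 17, 76734115 to 76737374, minus strand; GENCODE v29, GRCh38) had TC values of 165, 132 and 188 TPM and TM values of 234, 282 and 227 TPM. All TM samples lay above all TC samples, TM replicate 3 included. The TC mean was 161 ± 28.2 TPM and the TM mean was 248 ± 30.0 TPM (SD, n = 3). In the limma fit the log2 difference was -0.62 with an SE of 0.16 (limma adjusted p = 0.124, unadjusted p = 0.00449). Exons of SRSF2 overlap those of MFSD11 on the opposite strand, which was between 6.96 and 15.3 TPM, so that reads of one could count for the other if strand was not used.

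SRSF4 and SRSF6, like SRSF5, carry a long arginine and serine tail behind a pair of RNA recognition motifs. SRSF4 (ENSG00000116350; chromosome 1, 29147743 to 29181987, minus strand) was at 40.2, 49.1 and 42.4 TPM in TC and at 64.0, 72.0 and 50.6 TPM in TM. The groups did not overlap, although TM replicate 3 lay only just above TC replicate 2, and the log2 difference was -0.48 (SE 0.17, limma unadjusted p = 0.0194, adjusted p = 0.206). SRSF6 (ENSG00000124193; chromosome 20, 43457928 to 43464247, plus strand) was at 69.0, 63.6 and 86.8 TPM in TC and at 95.8, 143 and 78.8 TPM in TM. TM replicate 2 was far above the rest and TM replicate 3 fell inside the TC range, so the log2 difference of -0.50 had an SE of 0.23 (limma adjusted p = 0.335). SRSF5 (ENSG00000100650; chromosome 14, 69726900 to 69772005, plus strand) was at 186, 119 and 283 TPM in TC and at 188, 418 and 126.5 TPM in TM. It varied most of the 10 genes, 2.39-fold among TC samples and 3.31-fold among TM samples, and its log2 difference of -0.22 was smaller than its SE of 0.44 (limma adjusted p = 0.857).

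SRSF1, a founding member of the family that promotes exon inclusion and acts in translation, and SRSF7, which differs from the others by a zinc knuckle and serves as an export adaptor, had narrow gaps between the groups. SRSF1 (ENSG00000136450; chromosome 17, 58003360 to 58007346, minus strand) was at 104, 101.5 and 85.6 TPM in TC and at 151, 110 and 111 TPM in TM. The lowest TM sample stood just above the highest TC sample, and the log2 difference was -0.34 (SE 0.16, limma adjusted p = 0.352). SRSF1 shares exon sequence on the same strand with the annotated gene AC015813.2 (ENSG00000266086), which was between 5.67 and 18.8 TPM, so that their reads can be divided between them. SRSF7 (ENSG00000115875; chromosome 2, 38743599 to 38751494, minus strand) was at 101, 113 and 118 TPM in TC and at 141, 142 and 119.9 TPM in TM. TM replicate 3 again lay next to the TC samples, and the log2 difference was -0.28 (SE 0.13, limma adjusted p = 0.342).

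SRSF10, which can repress splicing when dephosphorylated, and SRSF11, an SR-like protein, were the least abundant members together with SRSF4. SRSF10 (ENSG00000188529; chromosome 1, 23964804 to 23980927, minus strand) was at 52.0, 44.6 and 37.0 TPM in TC and at 67.6, 68.1 and 48.8 TPM in TM. TM replicates 1 and 2 exceeded all TC samples and TM replicate 3 did not, and the log2 difference was -0.45 (SE 0.19, limma unadjusted p = 0.0406, adjusted p = 0.284). SRSF11 (ENSG00000116754; chromosome 1, 70205682 to 70253052, plus strand) was at 36.6, 32.5 and 24.0 TPM in TC and at 47.7, 51.9 and 28.7 TPM in TM. It had the same arrangement of samples, and limma gave -0.43 for the log2 difference, with an SE of 0.25 (adjusted p = 0.468).

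SRSF3, the smallest SR protein and an export adaptor like SRSF7, and TRA2B, which recognizes purine-rich exonic enhancers, hardly differed in mean. SRSF3 (ENSG00000112081; chromosome 6, 36594353 to 36605600, plus strand) was at 234.5, 258 and 282 TPM in TC and at 298, 348 and 182 TPM in TM. Its TM samples included both the highest and the lowest value of the 6, and the log2 difference was -0.048 (SE 0.23, limma adjusted p = 0.950). TRA2B (ENSG00000136527; chromosome 3, 185915906 to 185938136, minus strand) was at 98.7, 88.5 and 106.5 TPM in TC and at 109.8, 122 and 77.1 TPM in TM, again with TM at both ends. Its log2 difference was -0.050 (SE 0.18, limma adjusted p = 0.931). With median-of-ratios scaling these log2 differences turned to 0.16 for both genes. Genes named by symbol as SR pseudogenes took little signal, since 0 of 13 reached 1 TPM in any sample (highest value 0.52 TPM).

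**Figure D2:**
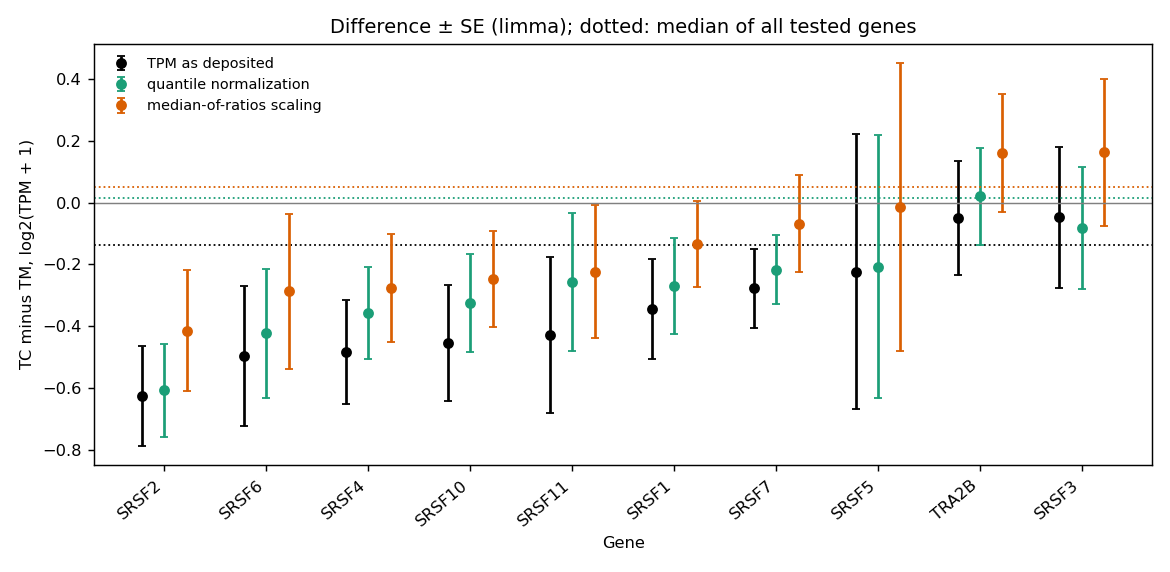
Log2 difference (TC minus TM) of each SR gene with its standard error from limma, for TPM as deposited and under 2 other scalings of the samples, with the median of all tested genes dotted. SRSF2 lies lowest under all 3 scalings (-0.62, -0.61 and -0.41), and TRA2B and SRSF3 lie near or above 0.

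The SR genes were then read sample by sample. After each gene was centered on its own mean over the 6 samples, the average over the 10 genes was 0.46 in TM replicate 2 and 0.24 in TM replicate 1 on the log2(TPM + 1) scale. For the TC samples it was -0.15, -0.26 and -0.11, and for TM replicate 3 it was -0.19. In this average TM replicate 3 therefore resembled the TC samples. By gene it often did not. It lay above every TC sample in SRSF1, SRSF2, SRSF4 and SRSF7, and it was the lowest of all 6 samples in SRSF3 and TRA2B. TM replicate 2 held the highest value in 9 of the 10 genes, and TM replicate 1 held it in SRSF1. The samples with high SR genes were those with high skeletal muscle and fibroblast markers, and the part of host RNA in the SR values was not tested. Without TM replicate 3, 8 of 10 genes reached p under 0.05 before adjustment with lower values in TC, against 16.8% of all tested genes, and the number called remained 0. Without TM replicates 1 and 2 the remaining TM sample was assumed to vary like the TC samples. Then 0 of 10 genes were lower at that threshold, against 8.72% of all tested genes, and 1 (SRSF3, log2 difference 0.50, limma unadjusted p = 0.0262, adjusted p = 0.265) was higher in TC, against 5.74%. SRSF2 kept a log2 difference of -0.51 (SE 0.23, limma unadjusted p = 0.0514, adjusted p = 0.350).

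Other properties of the libraries also moved with the zone. Summed TPM of the nuclear RNAs MALAT1 and NEAT1, which reside in and beside the nuclear speckles where SR proteins are stored, came to 37.5, 24.7 and 26.5 for TC and to 70.6, 84.1 and 144.8 for TM, highest in TM replicate 3. Mitochondrially encoded genes took 8.84%, 6.09% and 6.32% of TPM in TC and 9.24%, 10.6% and 11.1% in TM, whereas ribosomal protein genes took 24.5%, 26.8% and 26.3% in TC and 20.5%, 19.8% and 23.9% in TM. Summed TPM of 8 endothelial markers, of which EMCN was at 0 in all samples, was 11.2 to 15.01 in TC and 16.9 to 19.8 in TM, with 6 of 8 genes lower in mean in TC. ROBO4 was the largest part of the endothelial sum in each sample. None of these measures overlapped between the groups, and their part in the SR gene differences was not tested. The summed macrophage, adipocyte and erythroid markers did overlap between the groups. CD68 was the largest part of the macrophage sum in each sample. By gene, 7 of 8 macrophage, 2 of 6 adipocyte and 0 of 6 erythroid markers were lower in mean in TC.

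**Figure D3:**
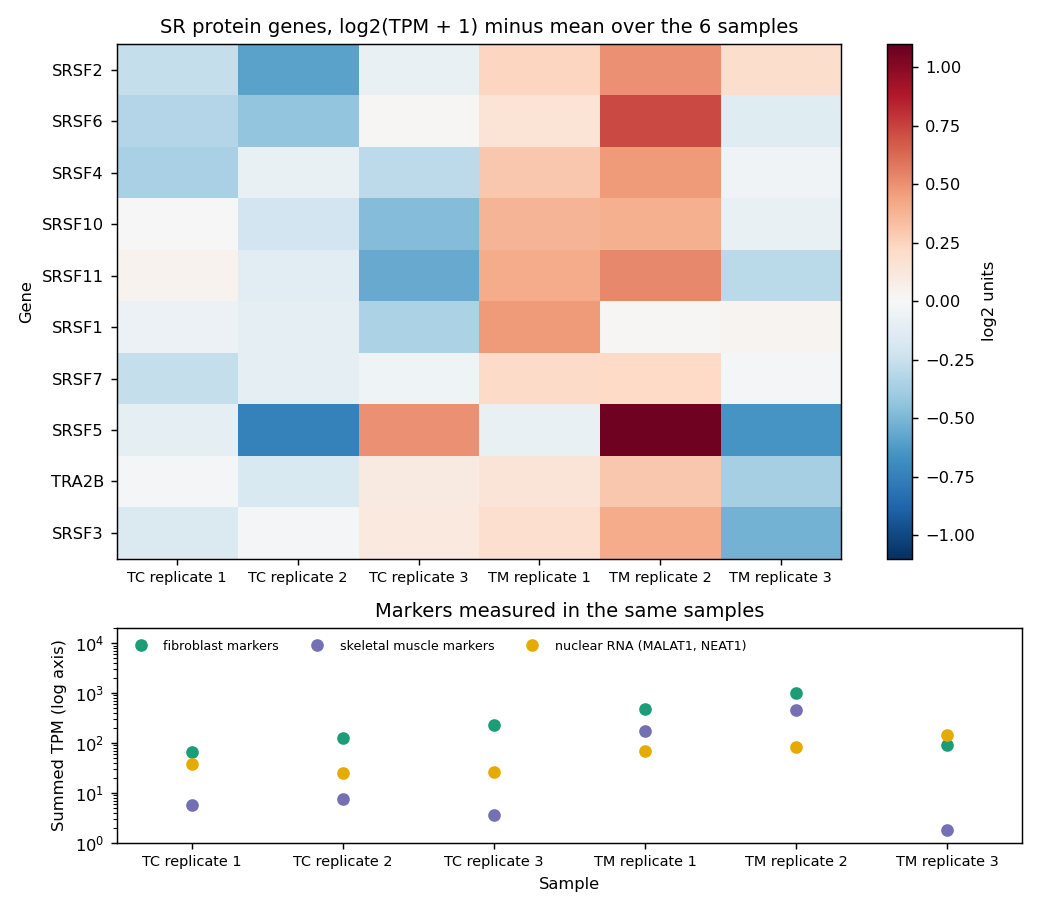
Upper panel, log2(TPM + 1) of each SR gene in each sample minus its mean over the 6 samples; lower panel, summed TPM (log axis) of fibroblast markers, skeletal muscle markers and the nuclear RNAs MALAT1 and NEAT1 in the same samples. TM replicates 1 and 2 are red in most genes and high in the fibroblast list, which is mostly collagen, and in the muscle list. TM replicate 3 has a muscle marker sum of 1.78 and the highest nuclear RNA sum (144.8).

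To remove the scaling of the samples, each gene was expressed as its share of the summed TPM of the 10 genes. That sum came to 1087, 1000 and 1253 TPM for TC and to 1397, 1758 and 1051 TPM for TM, with means of 1113 ± 128 and 1402 ± 354 (SD, n = 3; two-sided p = 0.3 by exact permutation, where the smallest possible is 0.1). TM replicate 3 lay inside the TC range. SRSF2 made up 15.2%, 13.2% and 14.97% of the sum in TC and 16.7%, 16.1% and 21.6% in TM, with no overlap. SRSF3 made up 21.6%, 25.8% and 22.5% in TC and 21.3%, 19.8% and 17.3% in TM, and TRA2B made up 9.08%, 8.85% and 8.502% in TC and 7.86%, 6.94% and 7.33% in TM. The shares of SRSF3 and TRA2B were thus higher in all TC samples, by 3.81 and 1.43 percentage points on average, and that of SRSF2 was lower by 3.71 points. Each of these 3 comparisons had an exact permutation p of 0.1, the smallest that 3 samples against 3 allow, and cannot reach 0.05. The size of the SRSF2 difference rested largely on TM replicate 3, since it was -1.96 points without that sample and -7.20 points without TM replicates 1 and 2. In the latter case SRSF3 differed by 5.98 points and TRA2B by 1.48 points. The shares of the 10 genes add up to a whole, so a lower share of one requires higher shares of others. These 3 differences are therefore not independent. Among all tested genes, 11.9% did not overlap between the groups when divided by the same sum. Genes outside the family are not part of that sum, so this percentage is only a rough comparison. The shares of the other 7 genes overlapped (exact permutation p from 0.2 to 1.0). SRSF6 made up 6.54% ± 0.331 in TC and 7.498% ± 0.639 in TM (SD, n = 3), and SRSF5 ranged from 11.9% to 23.8% over the 6 samples.

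Pairs of genes restate this contrast within the family. They were chosen after the shares were seen and are given without a test. A share higher in all TC samples, divided by one lower in all TC samples, must separate the groups. The separation of the ratios therefore adds no support. SRSF3 over SRSF2 gave 1.42, 1.96 and 1.503 for TC against 1.27, 1.23 and 0.80 for TM. TRA2B over SRSF2 gave 0.599, 0.673 and 0.568 for TC against 0.469, 0.432 and 0.339 for TM. Both ratios were lowest in TM replicate 3, the TM sample with the lowest skeletal muscle markers. As the shares require, they were above the TM range in every TC sample.

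**Figure D4:**
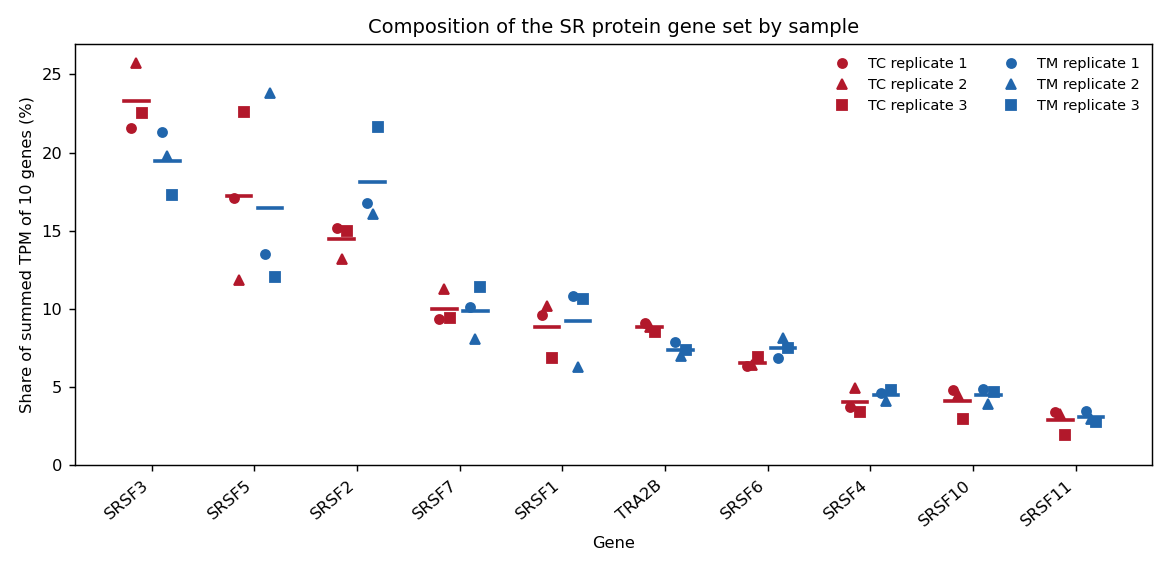
Share (%) of each SR gene in the summed TPM of the 10 genes, by sample, with bars at the group means. SRSF2 is lower and SRSF3 and TRA2B are higher in all TC samples than in all TM samples, and the other 7 genes overlap.

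The other genes of the splicing pathway were examined in lists, each to be read against all tested genes, of which 14.2% were lower and 1.93% higher in TC at p under 0.05 before adjustment. The same shares were 8.72% and 5.74% without TM replicates 1 and 2, with a median log2 difference of -0.064 over all tested genes. Of 4 other SR family genes 3 were tested and 0 were called by limma, with 1 at p under 0.05 before adjustment. That gene was TRA2A, the paralog of TRA2B, at 49.1, 39.0 and 42.0 TPM in TC and 68.3, 53.3 and 59.6 TPM in TM (log2 difference -0.47, SE 0.15, limma adjusted p = 0.189). SRSF9, with the next smallest p-value, was at 306 ± 37.3 TPM in TC and 330 ± 113 TPM in TM (SD, n = 3, limma adjusted p = 0.954). SRSF12 did not pass the filter on low values and was not tested. Without TM replicates 1 and 2 SRSF9 had a log2 difference of 0.56 (limma unadjusted p = 0.0196, adjusted p = 0.230) and TRA2A one of -0.46 (limma adjusted p = 0.414). The count of lower genes was 0 without TC replicate 2 (against 9.94% of all tested genes) or TM replicate 1 (against 9.73%). It was 2 without TM replicate 3 (against 16.8%).

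Of 11 kinases and transport factors that act on SR proteins 10 were tested and 0 were called by limma, with 3 lower and 0 higher at unadjusted p under 0.05 and a median log2 difference of -0.27. Without TM replicates 1 and 2 there were 2 lower and 0 higher and the median was -0.17. NXF1, the mRNA export receptor that SR proteins recruit, was at 29.5 ± 5.38 TPM in TC and 52.6 ± 5.04 TPM in TM (SD, n = 3), for a difference of -0.82 on the log2 scale (adjusted p = 0.0843 by limma). CLK2, a kinase of SR proteins, was at 13.0, 12.1 and 7.82 TPM in TC and 22.1, 15.9 and 34.2 TPM in TM (log2 difference -1.03, SE 0.30, limma adjusted p = 0.150). Both were separated between the groups with TM replicate 3 as the highest sample, unlike most SR genes, and without TM replicates 1 and 2 their log2 differences were -0.93 (NXF1) and -1.58 (CLK2, limma adjusted p = 0.0660).

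Among 23 genes of SR-related proteins, which carry regions rich in arginine and serine, 0 were called by limma, with 9 lower and 0 higher at unadjusted p under 0.05 and a median log2 difference of -0.37. Without TM replicates 1 and 2 there were 4 lower and 4 higher and the median was -0.014, and without TM replicate 3 there were 17 lower, against 16.8% of all tested genes. ACIN1, a component of complexes deposited near exon junctions, was at 89.3, 78.7 and 79.3 TPM in TC and 148, 149.6 and 142 TPM in TM, far apart relative to the spread of either group (log2 difference -0.83, SE 0.12, limma adjusted p = 0.0529). SRRM1, a splicing coactivator, was at 38.2, 32.4 and 35.6 TPM in TC and 62.0, 63.9 and 54.8 TPM in TM (log2 difference -0.75, SE 0.14, limma adjusted p = 0.0813). Of the list, 10 genes had every TC sample below every TM sample, against 18.9% of all tested genes. The number called was 1 after removal of mitochondrially encoded genes, where 26 of 14064 tested genes were called. It was also 1 with robust moderation, where 47 of 13861 tested genes were called. Without TM replicates 1 and 2 the log2 difference was -0.78 for ACIN1 and -0.62 for SRRM1.

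Of 27 hnRNP genes, RNA-binding proteins that often oppose SR proteins, 0 were called by limma, with 4 lower and 0 higher at unadjusted p under 0.05 and a median log2 difference of -0.22. These 4 genes are close to the share over all tested genes. The count was 2 without TC replicate 3 (against 10.0% of all tested genes) or TM replicate 1 (against 9.73%). It was 16 without TM replicate 3 (against 16.8%). Without TM replicates 1 and 2 there were 2 lower and 2 higher and the median was 0.023. HNRNPH1 was at 361, 233 and 213 TPM in TC and 568, 794 and 506 TPM in TM (log2 difference -1.22, SE 0.24, limma adjusted p = 0.0843). PTBP1, a repressor of exons, was at 181 ± 8.05 TPM in TC and 244 ± 18.5 TPM in TM (SD, n = 3), a difference of -0.43 on the log2 scale (limma, adjusted p = 0.134).

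Of 34 genes of the core spliceosome 0 were called, with 9 lower and 1 higher at the same threshold and a median log2 difference of -0.16, close to that of all genes. The number lower was 5 without TM replicate 1 (against 9.73% of all tested genes) or TM replicate 2 (against 11.7%). Without both the median was -0.015. SF1, which recognizes the branch point, was at 96.6 ± 2.10 TPM in TC and 169 ± 36.7 TPM in TM (SD, n = 3, limma adjusted p = 0.0843), and SNRNP200, a helicase of the spliceosome, was at 80.9 ± 3.18 and 119 ± 6.68 TPM (SD, n = 3, limma adjusted p = 0.0843). Of 15 genes of NMD and the exon junction complex 0 were called, with 4 lower and 0 higher and a median log2 difference of -0.30. Lower genes numbered 2 without TC replicate 3 (against 10.0% of all tested genes) and 1 without TM replicate 1 (against 9.73%). Without TM replicates 1 and 2 there were 1 lower and 1 higher and the median was 0.017. SMG5, an NMD factor, was at 35.1, 31.7 and 32.0 TPM in TC and 54.3, 53.7 and 53.7 TPM in TM (log2 difference -0.69, SE 0.13, limma adjusted p = 0.0813), and CASC3, of the exon junction complex, was at 35.2 ± 4.78 and 49.5 ± 4.31 TPM (SD, n = 3, limma adjusted p = 0.178). The genes named from these 3 lists kept log2 differences below 0 without TM replicates 1 and 2, from -0.95 for HNRNPH1 to -0.30 for PTBP1 (limma adjusted p from 0.136 to 0.499). After median-of-ratios scaling the medians of the 6 lists were 0.16, -0.077, -0.16, -0.013, 0.052 and -0.089 in the order given, so the other SR family genes and the core spliceosome turned to positive medians.

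**Figure D5:**
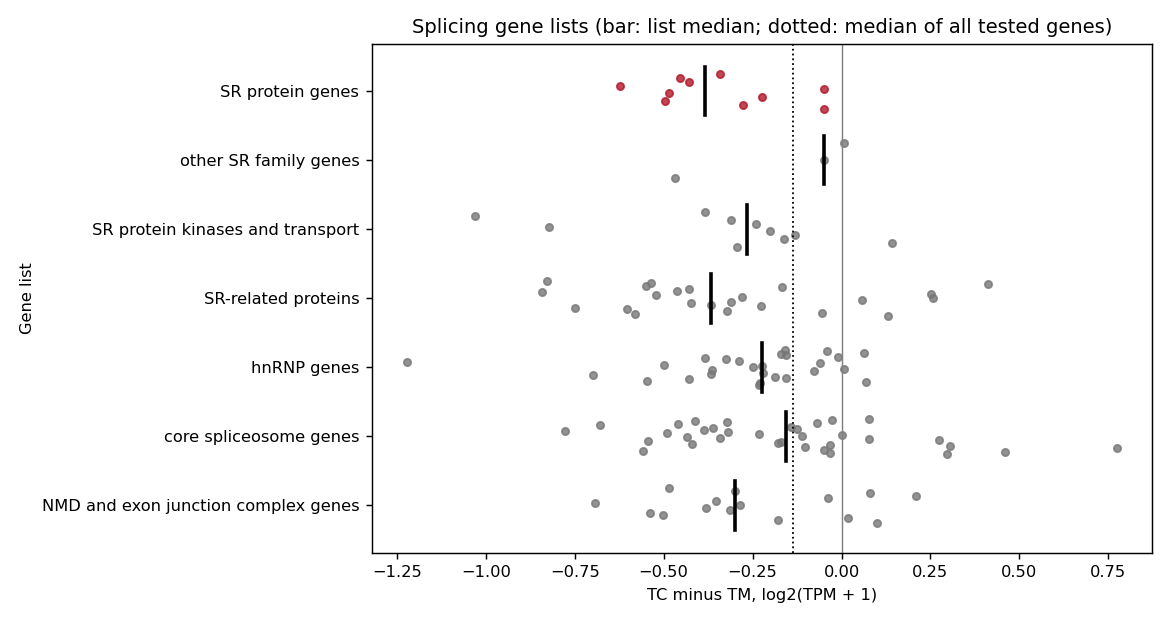
Log2 difference (TC minus TM) of every tested gene in the SR family set (red) and 6 other splicing lists (grey), with list medians as bars and the median of all tested genes dotted. The median is -0.39 for the SR genes and between -0.37 and -0.050 for the other lists.

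The genes most like the SR family over the 6 samples were found by the Pearson correlation of log2(TPM + 1) with the mean centered profile of the 10 genes, among 13851 other tested genes. They were CTPS1 (r = 0.996), TPM1 (0.995), ARIH2 (0.994), PIK3AP1 (0.993) and SETP14 (0.993). These values describe 6 libraries, 2 of which (TM replicates 1 and 2) hold the high values of the profile, and were not tested. CTPS1, which makes CTP, was at 43.4, 36.5 and 44.5 TPM in TC and 62.3, 78.5 and 38.8 TPM in TM. TPM1, a tropomyosin of muscle and other cells, was at 170, 148 and 175.5 TPM in TC and 302, 437 and 145.6 TPM in TM. Both had their highest values in TM replicates 2 and 1 and a value among or near the TC samples in TM replicate 3.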

How the data were processed

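RNA-seq libraries of 3 TC and 3 TM samples were made with a TruSeq RNA kit. According to the study's methods, SeqPrep and Sickle trimmed the paired reads, which were aligned with HISAT2, assembled with StringTie and quantified with RSEM. The labels name hg38. Tool versions, the annotation release and any step that parts mouse from human reads are not given in the sources used here. The authors deposited TPM per gene, which sum to 1000000 in 5 samples and 994381 in TM replicate 3. No other value columns were present (0). TPM keeps no depth, so the count test used by the study could not be run.

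Symbols were found for 60401 annotated genes, and 259 loci outside the annotation were left out. A gene entered the test if 3 or more of the 6 samples held 1 TPM or more. For log2(TPM + 1), the contrast of TC minus TM was fitted with limma 3.58.1 under R 4.3.3 (empirical Bayes with a trend, two-sided, no covariate), with Benjamini-Hochberg adjustment over 13861 genes. Calls required an adjusted p under 0.05. Differences are on the log2(TPM + 1) scale, which understates changes of low genes. Sums and shares were compared by two-sided exact permutation tests (scipy 1.17.1). The labels name no animals. A figure legend of the study gives 3 mice per group, without saying whether a TC and a TM sample came from 1 tumor. Positions are from GENCODE v29 on GRCh38. Named genes are all 10 members, the 2 genes with the smallest p in each other list, the 5 most alike genes, and genes overlapping a member. The members and lists were chosen with earlier results of these data known.

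Alternatives were a pseudocount of 0.1, no filter, a mean of at least 5 TPM, quantile and median-of-ratios scaling, TPM without mitochondrially encoded or ribosomal protein genes, the replicate number as a block, moderation without a trend or robust, and leaving out each sample. Leaving out TM replicates 1 and 2 together was added after the data were seen. Genes tested were kept when samples were left out.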

Additional observations from a re-analysis of the deposited data

How the results depend on the processing

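No SR gene was called in any of the 17 alternative fits (smallest adjusted p = 0.0896, limma). Of the 10 SR genes, 6 had a log2 difference below 0 in every fit, and SRSF3, SRSF5, SRSF11 and TRA2B did not. The number of SR genes with lower values in TC and p under 0.05 before adjustment was 3 with all samples, 0 with median-of-ratios scaling, 6 without mitochondrially encoded genes (against 17.0% of all tested genes), 1 to 8 when single samples were left out (1 without TM replicate 1, against 9.73%, 1 without TM replicate 2, against 11.7%, and 8 without TM replicate 3, against 16.8%) and 0 without TM replicates 1 and 2, where 1 was higher (against 8.72% and 5.74%). The median log2 difference of the SR genes was -0.61 (without TM replicate 3) to -0.26 over single samples left out and -0.12 without TM replicates 1 and 2, and the difference in summed TPM (-288.5 with all samples) was -464 to -110.5 and 62.5. The cause of these shifts was not tested.

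The log2 difference of SRSF3 was 0.16 with median-of-ratios scaling, 0.035 without ribosomal protein genes, -0.32 to 0.145 when single samples were left out and 0.50 without TM replicates 1 and 2. That of TRA2B was 0.16, 0.033, 0.020 with quantile normalization, -0.24 to 0.085 and 0.34. That of SRSF5 was -0.61 to 0.25 and 0.54, and that of SRSF11 was 0.086 without TM replicates 1 and 2. When single samples were left out, the difference in share (percentage points) was -1.86 to 0.63 for SRSF1, -1.96 to 4.43 for SRSF5, -0.77 to 0.90 for SRSF7, -0.75 to 0.17 for SRSF10 and -0.45 to 0.27 for SRSF11, and without TM replicates 1 and 2 it was -1.42 for SRSF7 and 0.11 for SRSF11. The shares of SRSF2 (-4.75 to -1.96), SRSF3 (2.58 to 4.73) and TRA2B (1.21 to 1.67) kept their direction when single samples were left out.

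Over all tested genes 19 were called, against 7 with a pseudocount of 0.1, 1 without a filter, 4 with quantile normalization, 6 with median-of-ratios scaling, 9 without ribosomal protein genes, 12 without a trend, 47 with robust moderation, 1 to 17 when single samples were left out and 195 without TM replicates 1 and 2. Among SR-related proteins 1 gene was called without mitochondrially encoded genes (26 of 14064 over all) and 1 with robust moderation (47 of 13861 over all). Same-numbered TC and TM samples deviated from their group means with correlations of 0.21, -0.12 and -0.16 over genes. With 3 samples per group these correlations cannot show whether the numbers pair the samples. With the replicate block 1 gene was called over all and 4 SR genes reached p under 0.05 before adjustment with lower values in TC, against 12.1% of all tested genes.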
